A study of Mus musculus with 14 samples.

Results

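Lymphoma B cells carrying a short hairpin RNA against Tet2 (shTet2) were compared with control lymphoma B cells, across all genes. The comparison takes 7 of the 14 RNA-seq libraries of the series, chosen by their titles: 2 shTet2 libraries (replicates 1 and 2, genotype label TET2 Knock-Down) and 5 control libraries (replicates 1 to 5, genotype label TET2 Wild-Type). All 7 came from spleen of C57BL/6 mice, and the cell type label reads B-cells. The other 7 libraries are normal germinal center (GC) B cells, 4 of Tet2 knock-out (KO) and 3 of wild-type (WT) genotype, also from C57BL/6 spleen, and serve here only to set the shTet2 differences beside those of the KO. How the lymphoma arose, which alleles it carries besides, what the control cells carried in place of the hairpin, the age of the mice and whether replicates came from separate animals are stated in none of the labels. The p-values therefore cover only library-to-library spread, which may be technical.

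TET2 is an enzyme that oxidises 5-methylcytosine in DNA, mostly where C is followed by G, a step on the way to losing the methyl group. Tet2 is among the genes often mutated in blood cancers, B-cell lymphoma included. GC B cells alternate between rapid division and selection through the antigen receptor, and then leave as memory B cells or as antibody-secreting plasma cells, so genes of mitosis, early receptor response and secretion mark different steps of this path.

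The 7 libraries carried very unequal loads of ribosomal and other structural RNA, and the load moved with the group. A set of 193 gene rows taken to hold such reads took 57.5%, 80.7%, 66.3%, 65.5% and 68.3% of the counts in control replicates 1 to 5, and 54.1% and 45% in shTet2 replicates 1 and 2. Both shTet2 libraries lay below all 5 controls, with control replicate 1 the closest. Outside these rows 1525240 to 6768174 counts were left per library, the fewest in control replicate 2 and the most in shTet2 replicate 1. The make-up of the structural reads divided the libraries in another way. Lars2, a protein-coding gene whose row also collects ribosomal RNA reads, took 2.17% to 3.58% of the counts in control replicates 1 and 5 and shTet2 replicate 1, 2.13% in shTet2 replicate 2, and 9.07% to 13.9% in control replicates 2, 3 and 4. In the GC B-cell libraries the structural rows took 0.37% to 1.32%. These rows were removed before library sizes were set, so a normalised read count (CPM) counts reads relative to the library's total outside these rows, scaled with TMM factors.

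**Figure D1:**
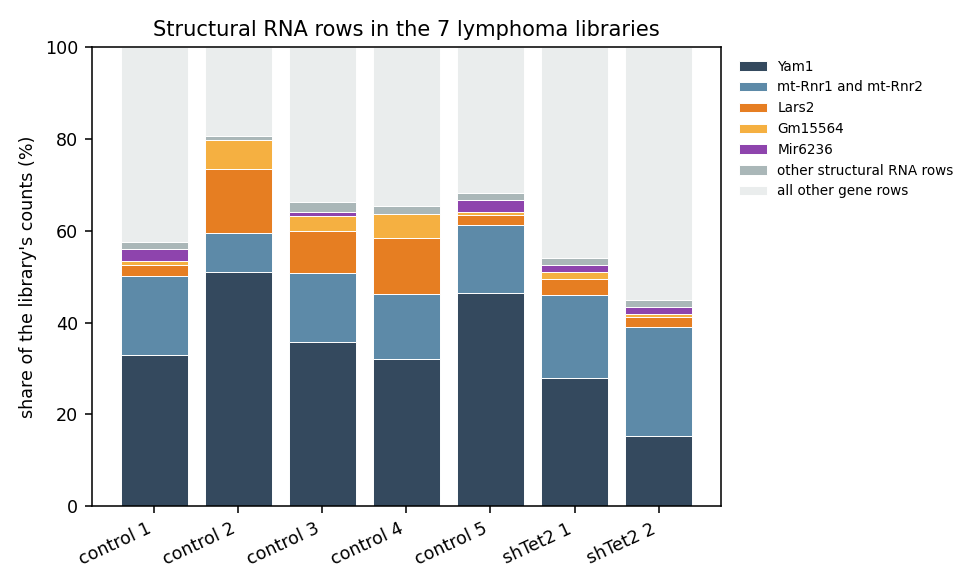
Share of each lymphoma library's counts (%, bars from 0 to 100) in the largest structural RNA rows, the other structural rows and all other genes. The structural share is lowest in the 2 shTet2 libraries (54.1% and 45%), and the orange Lars2 segment is wide in control replicates 2, 3 and 4.

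Library shTet2 replicate 2 stood apart from the other 6. On the first principal component of log2 CPM, which held 39.7% of the variance, it lay at 57.2, against -31.8 to 10.8 for the rest. The 2 shTet2 libraries correlated at 0.956 (Pearson's r of log2 CPM across genes), below the 10 pairs of controls, at 0.965 to 0.982. With control replicates 1 to 5, shTet2 replicate 1 correlated at 0.967, 0.954, 0.971, 0.972 and 0.980. For shTet2 replicate 2 the values were 0.946, 0.928, 0.936, 0.958 and 0.949. So shTet2 replicate 1 was closer to most controls than to shTet2 replicate 2. In all pairs the counts differed by more than counting error, so none was a copy of another.

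The cells were B cells by their markers. Of 10 B-lineage markers, among them Cd79a, Ms4a1 and Pax5, 0 passed the test (edgeR, 2 at an unadjusted p under 0.05), and their median log2 fold change was -0.12. Their summed level was 23399 to 24588 CPM in the controls and 20648 to 23105 CPM in the shTet2 libraries. Markers of other cells were scarce: T-cell markers summed to 77.1 to 173.7 CPM in controls and 123.5 to 179.9 CPM in shTet2 libraries. The median of their log2 levels over the mean of the controls was 0.36 and 0.30 in shTet2 replicates 1 and 2, above the control maximum of 0.21. Of the 15 tested, 5 lay above all controls in both, as did 11.5% of all genes tested. The part of the T-cell markers in the differences below was not tested. Neutrophil markers summed to 16.8 to 112.2 and 22.6 to 109.6 CPM. Macrophage markers summed to 156.6 to 194.2 CPM in controls, 148.3 CPM in shTet2 replicate 1 and 417.3 CPM in shTet2 replicate 2, where Itgam alone held 150.1 CPM. Their list median was -0.28 and 0.63 in shTet2 replicates 1 and 2, against -0.25 to 0.30 in controls. In replicate 2, 11 of the 16 tested lay above all controls, where 31.3% of all genes did. In replicate 1, 1 did, where 18.7% of all genes did. The part of the macrophage markers in the differences below was not tested. Of the 15 T-cell, 16 macrophage and 11 neutrophil markers tested, 0 passed (edgeR), and 2, 3 and 0 had an unadjusted p under 0.05. In such bulk libraries fewer cells of a type and less RNA per cell cannot be told apart. The 4 Y-linked genes listed had 0 counts in all 7 libraries.

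The targeted gene checks the labels. Tet2 (GRCm38 chromosome 3, bases 133463679 to 133544390) ran at 190, 178.8, 162.2, 160.5 and 161.4 CPM across control replicates 1 to 5 and at 153.6 and 141.8 CPM in shTet2 replicates 1 and 2. The shTet2 values were the lowest of the 7, by a small margin, with a log2 fold change of -0.20 (SE 0.10) that missed the threshold (edgeR adjusted p = 0.299). Tet1, with 3.29 to 10.1 CPM in controls against 3.06 and 2.06, and Tet3, with 313.1 to 354.3 CPM against 297.2 and 217.4 CPM, also lay below all controls without passing (-1.21, SE 0.46, and -0.37, SE 0.12). A loss of Tet2 RNA beyond the spread was therefore not detected, and the groups rest on the labels.

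Of 12504 genes tested, 333 passed an adjusted p under 0.05 (edgeR quasi-likelihood test, Benjamini-Hochberg adjustment), which is 2.66%. They divide into 237 genes higher in shTet2 cells (1.9%) and 96 lower (0.768%), and 146 of the former and 21 of the latter changed at least 2-fold. The median log2 fold change over all genes was -0.00. Both shTet2 libraries lay above all 5 controls for 11.5% of the genes and below them for 9.77%. The 333 genes had the same direction under every alternative in which they were tested; the number of calls depended on which libraries and terms were in the fit. With the structural share as a covariate 0 genes passed (488 at an unadjusted p under 0.05), with only the 2 controls of lowest share (replicates 1 and 4) 1 passed (861 unadjusted), and with only control replicates 1 and 5, whose Lars2 share is like that of the shTet2 libraries, 0 passed (843 unadjusted). The effects of group and of structural RNA share cannot be told apart in these libraries. Leaving out control replicates 1 to 5 in turn gave 127, 148, 101, 196 and 264 calls. Of these, 122, 142, 100, 187 and 225 were among the 333. The fits without shTet2 replicate 1 or 2 leave a lone shTet2 library, which is assumed to vary like the controls. Of the 333 genes, 65 (54 higher, 11 lower) passed in all 7 of these fits.

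**Figure D2:**
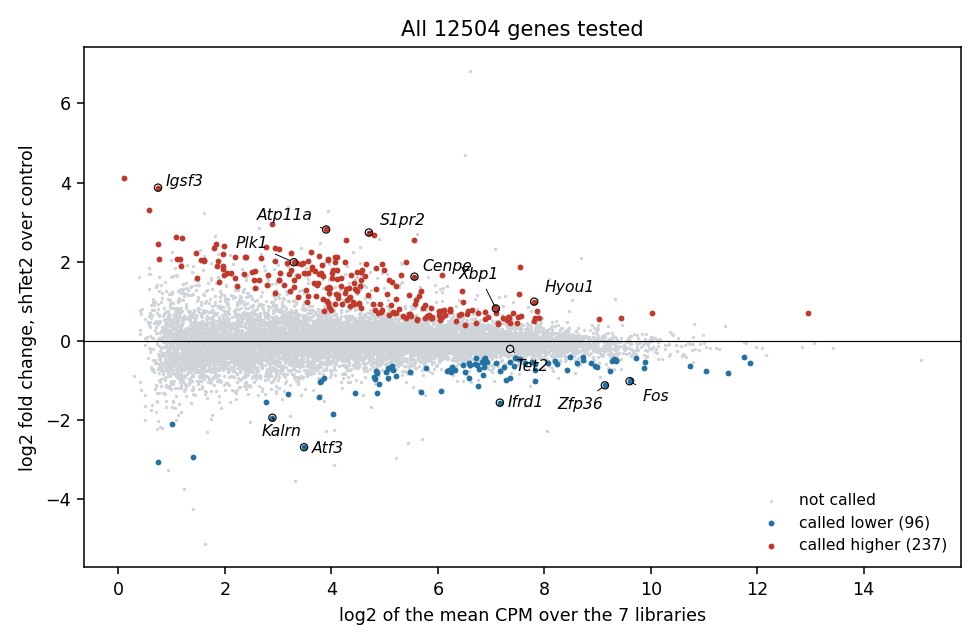
Log2 fold change of shTet2 over control (vertical) against the log2 mean CPM of the 7 libraries (horizontal), 1 point per gene tested. The 237 genes called higher and 96 called lower are coloured, and 13 genes are ringed and named, with Igsf3 highest at 3.87 and Atf3 lowest at -2.69.

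Genes of mitosis were the group that rose most. Of the 32 mitosis genes listed and tested, 24 passed the test, all of them higher. Of the 32, 30 were higher in both shTet2 libraries than in every control. Over all genes tested, 1.9% passed as higher and 11.5% lay above all controls in both. The median log2 fold change of the mitosis genes was 1.71, against -0.00 over all genes. Cenpe, a kinesin that links chromosomes to spindle microtubules, held 28.5, 24.9, 25.6, 31.1 and 37.4 CPM in the controls and 86.5 and 96.8 CPM in the shTet2 libraries (log2 fold change 1.62, SE 0.15, adjusted p = 0.000573). Plk1, the kinase that drives entry into mitosis, held 4.93, 4.70, 3.93, 6.35 and 6.47 CPM against 17.4 and 25 CPM (1.99, SE 0.25, adjusted p = 0.00404). In both genes the groups were far apart relative to their spread. Cyclin genes Ccna2 (1.84) and Ccnb1 (2.12), the spindle kinase genes Aurkb (1.72) and Ttk (2.31), the checkpoint gene Bub1 (2.03) and Top2a (1.87), the topoisomerase that untangles chromosomes, also passed. Mki67, the antigen used to stain dividing cells, ran from 122.3 to 325.9 CPM in controls and was 732.1 and 1092 CPM in the shTet2 libraries, yet did not pass (2.09, adjusted p = 0.0621). Pttg1 (0.064) and Cenpa (0.29) were closest to no difference.

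The level of the mitosis list is given here by library with the structural share. The median of the 32 genes, as log2 CPM over the mean of the controls, was -0.00 in control replicate 1 (structural share 57.5%), 0.33 in replicate 4 (65.5%), -0.25 in replicate 3 (66.3%), 0.35 in replicate 5 (68.3%) and -0.39 in replicate 2 (80.7%). It was 1.35 in shTet2 replicate 1 (54.1%) and 1.95 in replicate 2 (45%). Control replicate 1 and shTet2 replicate 1 are the control and shTet2 library closest in structural share, which is still lower in shTet2 replicate 1. All 32 genes were higher in shTet2 replicate 1, by a median of 1.26 on the scale log2(CPM + 0.5). Over all genes tested 50.4% were higher and the median was 0.0038. In the same pair of single libraries the 25 clustered histone genes were also all higher, by a median of 1.41. In contrast, 10 of 11 neutrophil markers were not, at a median of -2.12, and both lists varied widely among the controls. Of 39 interferon response genes 2 were higher in this pair, and of 23 MHC class I genes 2 were. In a single pair of libraries group and structural share cannot be told apart. With the share as a covariate the median fitted log2 fold change of the list was 1.0 and 0 members passed, and it was 1.62 and 1.53, again with 0 members called, with the 2 controls of lowest share and with the 2 of low Lars2 share. Without shTet2 replicate 2 the list had 15 members called, and without shTet2 replicate 1 it had 29.

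**Figure D3:**
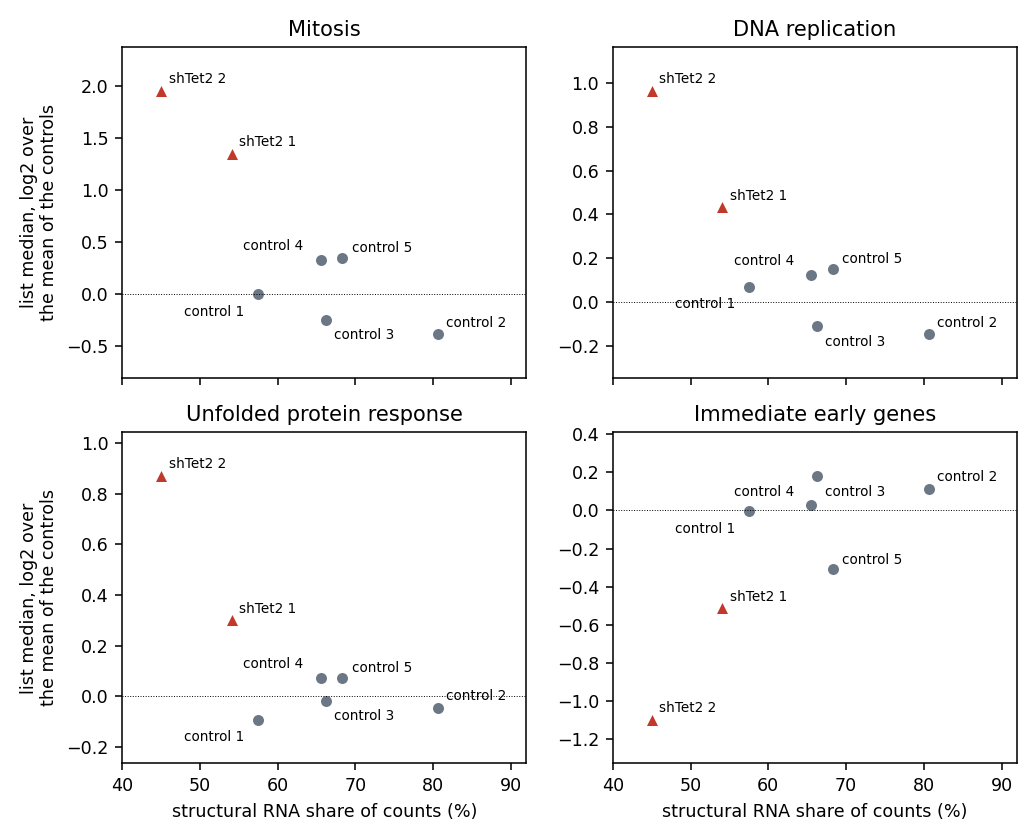
Median level of 4 gene lists (log2 over the mean of the controls, vertical) against the structural RNA share of the library's counts (%, horizontal), 1 point per library, controls as circles and shTet2 as triangles. Control replicate 1 at 57.5% has a mitosis level of -0.00 and shTet2 replicate 1 at 54.1% has 1.35.

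The promoters of the mitosis genes held a short motif far more often than promoters at large. The cell cycle genes homology region (CHR) is a TTTGAA element near the start site of many genes whose RNA peaks in mitosis. RefSeq promoter windows (GRCm38.p6, 250 bases before to 50 after a start site, the one nearest the gene's 5′ end and within 1000 bases of it) were at hand for 8075 of the 12504 genes. TTTGAA, on either strand, was found in 17 of the 26 mitosis promoters (65.4%) and in 961 of all 8075 (11.9%). Within 50 bases of the start site it was found in 16 of the 26 (61.5%) and in 248 of all (3.07%). It was in 53 of the 173 promoters of genes called higher (30.6%) and in 7 of the 54 of genes called lower (13%). A match describes letters only, and the motif was chosen after the calls were seen. The 3 named mitosis genes whose windows hold it (Cenpf and Plk1, among the smallest p, and Ttk, among the largest increases) are shown as 30 bases on the gene's strand, the match in capitals. They lie at chr1:189688067-189688096 (Cenpf, minus strand), chr7:122159453-122159482 (Plk1, plus strand) and chr9:83834684-83834713 (Ttk, plus strand), and the matches begin 3, 31 and 8 bases after the start site.
Cenpf: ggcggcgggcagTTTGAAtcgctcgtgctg
Plk1: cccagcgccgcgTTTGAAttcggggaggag
Ttk: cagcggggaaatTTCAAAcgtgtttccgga

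Some DNA replication genes rose too. Of 37 tested, 13 passed and all 13 were higher, with a median log2 fold change of 0.68. Of the 37, 24 were higher in both shTet2 libraries than in any control. Over all genes tested, 1.9% passed as higher and 11.5% lay above all controls in both. Mcm2, a subunit of the helicase that opens the DNA ahead of the fork, held 75.3, 61.8, 70.4, 79.8 and 80.5 CPM in the controls and 102.2 and 135.3 CPM in the shTet2 libraries (0.68, SE 0.13, adjusted p = 0.0188). Mcm3, Mcm4, Mcm5, Mcm6 and Mcm7 passed as well (0.55 to 0.97), as did Pola1, the catalytic subunit of the polymerase that starts new strands (0.82), the ligase gene Lig1 (1.02), and the loading factor genes Cdc6 (1.72) and Mcm10 (2.14). Pcna, the sliding clamp, held 149.9 ± 15.1 CPM (SD, n = 5) in controls and 163.4 ± 16.2 (SD, n = 2) in shTet2 cells and did not pass (0.12). Among genes of entry into the cell cycle 1 of 22 passed, E2f7 (1.38), a repressor made in S phase. Of the 25 clustered histone genes 1 passed, Hist1h1a, at 38.7, 28.9, 39.8, 50.4 and 48.1 CPM in controls against 117.1 and 150.1 CPM. Histone levels differed among the controls too, with list medians from -0.59 to 0.68, and the shTet2 medians of 0.45 and 0.41 lay inside that range. The replication list median was 0.38 with the share as a covariate, where 0 members passed, and 1 member passed without shTet2 replicate 2.

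Secretory genes formed the next group that was higher. The unfolded protein response raises chaperones of the endoplasmic reticulum when more protein is folded there. Of 24 such genes 9 passed, all higher, with a median log2 fold change of 0.64, where 1.9% of all genes passed as higher. Hyou1, a chaperone of this compartment, held 166.1, 166.0, 172.8, 175.8 and 193.5 CPM in the controls and 281.0 and 416.0 CPM in the shTet2 libraries (0.99, SE 0.13, adjusted p = 0.00424). Hspa5, its main chaperone (0.69), Calr (0.58), Canx (0.56) and the disulfide isomerase gene Pdia6 (1.19) passed too. Their rise was larger in shTet2 replicate 2, where the list median was 0.87 against 0.30 in replicate 1. The stress factor genes Atf4 (-0.02) and Ddit3 (-0.36) and the sensor gene Ern1 (0.53) did not pass. Asns passed, with the largest log2 fold change of the list (2.09, edgeR adjusted p = 0.0245). Its call was lost on leaving out any 1 of control replicates 1 to 4, and that on Calr any 1 of 1 to 5. Both calls were lost in limma-voom.

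Of 21 plasma cell genes tested 4 passed, all higher, at a list median of 0.58, where 1.9% of all genes passed as higher. Xbp1, the transcription factor of secretory capacity, held 95, 106.2, 101.1, 128.0 and 128.9 CPM in controls and 187.3 and 208.1 CPM in the shTet2 libraries (0.82, SE 0.13, adjusted p = 0.00769). Prdm1, the repressor that ends the GC B-cell state, held 13, 10.1, 11.5, 19.1 and 15.1 CPM against 23 and 42.4 CPM (1.22, SE 0.26, adjusted p = 0.0325). Both genes were above all controls in both libraries. The call on Prdm1 was lost in limma-voom and on leaving out control replicate 1, 2, 3 or 5. Edem1 and Herpud1, which serve protein quality control, were the other 2, while Sdc1 (0.58) and Irf4 (-0.25) did not pass. The antibody genes moved in part: Ighm, the constant region of IgM, was at 5626 to 7518 CPM in controls and 10690 and 11150 CPM in shTet2 cells (0.71, SE 0.11, adjusted p = 0.00769), and Ighe rose from at most 4.93 CPM to 18.8 and 20.5 CPM (2.95, adjusted p = 0.0033). Igkc (0.37), Igha (1.38) and the 4 Ighg genes did not pass. With the structural share as a covariate the medians of the unfolded protein response and plasma cell lists were 0.44 and 0.26 with 0 members called, and without shTet2 replicate 2 they were 0.28 and 0.28 with 3 and 1 called.

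Immediate early genes, which cells switch on within minutes of a signal such as receptor binding, were the group that fell most. Of 25 tested, 8 passed and all 8 were lower, 18 were lower in both shTet2 libraries than in any control, and the median log2 fold change was -0.88. Over all genes tested, 0.768% passed as lower and 9.77% lay below all controls in both. Fos, a subunit of the transcription factor AP-1, held 980.2, 1041, 927.7, 916.6 and 680.2 CPM in the controls and 483.6 and 412.6 CPM in the shTet2 libraries (-1.02, SE 0.15, adjusted p = 0.00812). Zfp36, which hastens the decay of short-lived mRNAs, held 659.7, 804.4, 666.9, 638.2 and 564.7 CPM against 328.6 and 282.6 CPM (-1.12, SE 0.13, adjusted p = 0.00335). Control replicate 5 was the lowest control in both genes, and both shTet2 libraries lay well below it. Atf3, a stress-induced factor of the same family as AP-1, fell furthest, from 12.3, 23.5, 17.2, 14.1 and 6.95 CPM to 2.33 and 2.06 CPM (-2.69, SE 0.44, adjusted p = 0.012). Dusp1 and Dusp6, phosphatases that switch off MAP kinases, Klf6, Ier5 and the nuclear receptor gene Nr4a1 were the others called. Egr1 (-0.98), Jun (-0.91) and Junb (-1.14) did not pass, and Egr2, at 5.98 to 19.1 CPM in controls and 18.7 and 28.9 CPM in shTet2 cells, pointed the other way (0.76).

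The level of these genes also differed among the controls, with list medians from -0.31 in control replicate 5 to 0.18 in replicate 3, against -0.51 and -1.1 in shTet2 replicates 1 and 2. With the structural share as a covariate the list median was -0.59, with the 2 controls of lowest share -0.81 and with the 2 of low Lars2 share -0.62, each with 0 members called. Without shTet2 replicate 2 the median was -0.54 and 3 members passed. The mitochondrially encoded mRNAs that could be tested were lower as well. Of 13 listed, 7 had enough counts to be tested. Of the 7, 5 passed as lower, at a list median of -0.63, where 0.768% of all genes passed as lower. The gene mt-Nd2, for a subunit of respiratory complex I, was at 1962 to 2832 CPM in controls. It was at 1440 and 1375 CPM in shTet2 cells (-0.77, edgeR adjusted p = 0.0228). The median of the 7 tested moved with the structural share. From the lowest share to the highest it was -0.68 and -0.56 in shTet2 replicates 2 and 1. It was then -0.23, -0.12, 0.16, -0.052 and 0.19 in control replicates 1, 4, 3, 5 and 2. With the share as a covariate, with the 2 controls of lowest share, with the 2 of low Lars2 share and without shTet2 replicate 2, 0 members passed, at medians of -0.31, -0.47, -0.51 and -0.57. The counterparts of the mitochondrial genes in the nucleus pointed the other way without a call. Of 31 oxidative phosphorylation genes, 29 were above 0, with a median of 0.40 and 0 passing (edgeR, 20 at an unadjusted p under 0.05, 3 by DESeq2). The larger mitochondrial ribosomal RNA row, mt-Rnr2, held 5.91% to 12.1% of the counts in controls, 13.1% in shTet2 replicate 1 and 17.8% in replicate 2, and its part in the mitochondrial mRNA difference was not tested.

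**Figure D4:**
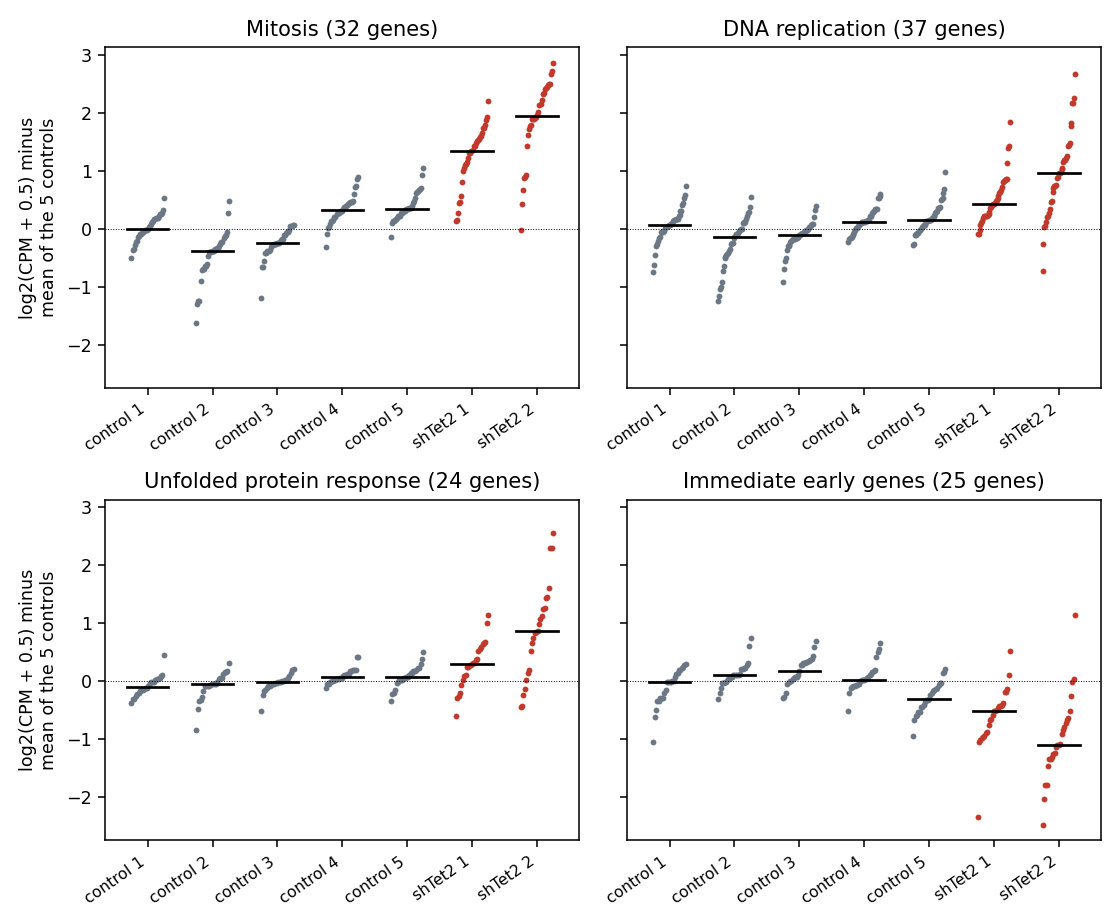
Each tested gene of 4 lists as log2(CPM + 0.5) minus the mean of the 5 controls (vertical) in each of the 7 libraries (horizontal), controls grey and shTet2 red, with the median as a bar. In both shTet2 libraries the mitosis medians lie above and the immediate early medians below those of all 5 controls.

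Single genes outside these lists had large differences too. Igsf3, an immunoglobulin-like membrane protein, had at most 0.958 CPM in controls, with 0 counts in 3 of them, and 7.44 and 2.63 CPM in the shTet2 libraries (3.87, SE 0.79, adjusted p = 0.0291). Atp11a, a flippase that moves phospholipids across the plasma membrane, held 8.44, 3.36, 3.77, 4.24 and 7.42 CPM in controls and 31.2 and 46.2 CPM in shTet2 cells (2.81, SE 0.29, adjusted p = 0.0022). Atp11a was far above every control in both libraries and kept its call in all 7 fits that left out 1 library, while Igsf3 kept it in 2. S1pr2, the receptor that keeps GC B cells in the follicle, rose from 7.39, 4.03, 5.57, 14.4 and 16.5 CPM to 51.0 and 83.7 CPM (2.74, SE 0.44, adjusted p = 0.0282), with the call kept in 3 of the 7. Further large increases were Slc35g1, Ska1, Pif1, Rad54b, Kif2c, Fscn1, Kifc1, Ttk and Gatm (2.23 to 2.63). Of these, Ska1, Kif2c, Kifc1 and Ttk act at the spindle, Pif1 and Rad54b on DNA, and Fscn1 bundles actin. Control means were low, 0.83 to 1.7 CPM, for Slc35g1, Ska1, Pif1, Kifc1 and Rad54b. The call on Ska1 was lost on leaving out any 1 of control replicates 1 to 5. That on Slc35g1 was lost without control replicate 2, 3, 4 or 5 and that on Rad54b without 3 or 4. Kif2c lost its call without control replicate 1, 2 or 4 and Kifc1 without 1, 2 or 3. Large decreases besides Atf3 were those of Kalrn (-1.94), Ifrd1 (-1.56) and Tmem184a (-1.55), and of Ssbp2, Slc14a1, Retsat, Zbtb10, Trp53inp2 and Zfp36 (-1.32 to -1.12). Tmem184a lost its call on leaving out any 1 of control replicates 1 to 5. Kalrn, Slc14a1, Zbtb10 and Trp53inp2 lost theirs on leaving out some of the controls. Exons of Tmem184a overlap those of Mafk on the other strand over 169 bases, and counting used no strand, so reads of this pair cannot be told apart there. The same holds for Ssbp2 and 4833422C13Rik, on the other strand, over 1765 of 7961 exon bases of Ssbp2. It also holds for Rad54b and Fsbp, on the same strand, over 2068 of 5782 exon bases of Rad54b.

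Because TET2 acts on cytosines in CG pairs, the promoter windows were described by their CG content. The median window held 23 CG pairs among the 173 genes called higher that had one, 20.5 among 54 called lower and 21 among all 8075, with medians of 61.3%, 61.2% and 61% G or C. No methylation was measured here. The 250 bases before the start site are shown for the 2 largest increases and the 2 largest decreases with such a window, with CG pairs in capitals: Igsf3 (chr3:101376875-101377124, plus strand), Atp11a (chr8:12756766-12757015, plus strand), Atf3 (chr1:191183334-191183583, minus strand) and Ssbp2 (chr13:91460847-91461096, plus strand). They hold 27, 29, 24 and 24 CG pairs. The start site of Ssbp2 lies 814 bases from the 5′ end of its gene in the count table, and the others within 7.
Igsf3: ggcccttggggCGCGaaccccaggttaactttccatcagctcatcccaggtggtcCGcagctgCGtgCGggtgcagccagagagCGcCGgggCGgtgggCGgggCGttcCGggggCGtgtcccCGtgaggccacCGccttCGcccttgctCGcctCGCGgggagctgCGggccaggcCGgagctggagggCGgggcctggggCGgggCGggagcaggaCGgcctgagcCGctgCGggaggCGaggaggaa
Atp11a: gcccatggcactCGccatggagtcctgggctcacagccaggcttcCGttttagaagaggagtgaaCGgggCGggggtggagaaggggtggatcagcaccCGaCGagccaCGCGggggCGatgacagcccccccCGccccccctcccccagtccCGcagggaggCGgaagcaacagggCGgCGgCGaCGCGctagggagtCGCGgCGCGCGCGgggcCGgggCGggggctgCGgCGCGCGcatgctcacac
Atf3: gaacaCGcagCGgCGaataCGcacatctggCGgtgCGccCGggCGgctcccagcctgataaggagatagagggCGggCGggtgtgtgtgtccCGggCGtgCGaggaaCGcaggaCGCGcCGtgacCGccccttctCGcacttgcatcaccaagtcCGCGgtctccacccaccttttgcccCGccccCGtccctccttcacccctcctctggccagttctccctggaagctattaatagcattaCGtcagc
Ssbp2: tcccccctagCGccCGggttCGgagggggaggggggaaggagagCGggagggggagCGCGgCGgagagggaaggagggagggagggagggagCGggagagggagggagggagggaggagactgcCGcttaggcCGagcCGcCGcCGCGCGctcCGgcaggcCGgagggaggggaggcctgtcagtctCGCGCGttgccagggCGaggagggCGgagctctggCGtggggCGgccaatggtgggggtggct
A half-site of the cAMP response element, TGACG on either strand, was found in 13 of 21 immediate early promoters (61.9%), Atf3 and Fos among them, and in 2726 of all 8075 (33.8%). It was in 41% of the windows of genes called higher and 40.7% of those called lower, and it too was chosen after the calls were seen.

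GC programme genes went both ways. Of 25 tested, 2 passed as higher, S1pr2 and the death receptor gene Fas (1.30), where 1.9% of all genes did. Of the 25, 14 had an unadjusted p under 0.05 (edgeR), as did 2413 of all 12504 genes. Both shTet2 libraries lay above all controls for 5 of the 25 and below them for 6, against 11.5% and 9.77% of all genes. The log2 fold changes of the list ran from -0.71 to 3.38 with a median of -0.073. Bcl6, the master repressor of the GC state, held 314.2 ± 25.7 CPM (SD, n = 5) in controls and 311.7 ± 76.8 (SD, n = 2) in shTet2 cells (-0.01). Mybl1, a factor of dividing GC B cells, was at 6.05 to 36.9 CPM in controls and 109.1 and 142.4 CPM in shTet2 cells but did not pass (2.69, adjusted p = 0.0531). Of 30 lymphoma tumour suppressors 3 passed, S1pr2, Fas and Prdm1, all higher, where 1.9% of all genes passed as higher. The list median was -0.16 and 8 of the 30 were above 0. Of the 30, 6 lay below all controls and 5 above, against 9.77% and 11.5% of all genes. Of 22 DNA methylation genes 4 passed, all higher, where 1.9% of all genes passed as higher. They were Dnmt1, the enzyme that copies methylation at replication (0.58), and the repair genes Neil1 (0.73), Mbd4 (0.64) and Ung (0.99). Dnmt1 held 205.1, 162.6, 204.1, 224.8 and 242.6 CPM in controls and 294.1 and 332.1 CPM in shTet2 cells (SE 0.13, adjusted p = 0.0344), and Dnmt3a (-0.12) and Tdg (-0.53) did not pass. The call on Dnmt1 was kept in 2 of the 7 fits without 1 library.

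Receptor signalling, chromatin, metabolic and presentation lists held 0 to 2 calls each, against 2.66% of all genes. Of 35 genes of B-cell receptor signalling 2 passed, both lower, among them Vav3 (-0.79), and the NF-kB subunit gene Rel was lower as well (-0.74), at 237.5 to 290.1 CPM in controls against 179.1 and 125.7 CPM. Kdm6b, a demethylase of histone H3, fell from 101.7 to 130.9 CPM in controls to 70.7 and 45.6 CPM (-0.94, adjusted p = 0.0171). Among 32 histone methyl- and acetyltransferase genes Whsc1 (0.46) and Setdb1 (0.40) passed, and 14 had an unadjusted p under 0.05. The calls on Vav3 and Whsc1 were lost on leaving out any 1 of control replicates 1 to 4. That on Setdb1 was lost on leaving out any 1 of control replicates 1 to 5. Exons of Whsc1 overlap those of Nelfa on the other strand over 1040 of 15898 bases, where their reads cannot be told apart. Heat shock chaperones had 1 call of 21 (Cct3), glycolysis 2 of 24 (Ldha and Eno1), MYC targets 1 of 33 (Ldha), MHC class I presentation 1 of 23 (Calr) and migration receptors 2 of 28 (S1pr2 and Itgb2), all higher. MHC class II, memory and naive, cytokine receptor, Toll-like receptor, inhibitory receptor and cytosolic ribosomal protein lists had 0 calls of 19 to 38 members each (edgeR, with 4, 10, 5, 4, 1 and 6 in this order at an unadjusted p under 0.05), and also 0 under limma-voom, while DESeq2 called 3 memory and naive genes and 1 Toll-like receptor gene.

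Interferon response genes set the 2 shTet2 libraries apart. The median of the 39 genes listed was -0.68 in shTet2 replicate 1, below the control range of -0.21 to 0.29, and -0.03 in replicate 2, within it. In replicate 1, 34 of the 39 lay below all 5 controls, where 18.1% of all genes tested did, and in replicate 2, 10 did, where 29.6% of all genes did. Oasl2 alone passed, at 29.6 to 38.3 CPM in controls against 13.4 and 19.9 CPM (-0.98, adjusted p = 0.02). The median of the 23 MHC class I genes was -0.35 in replicate 1, below the control range of -0.24 to 0.13, and 0.19 in replicate 2, above it. Of these genes 13 lay below and 2 above all controls in replicate 1, where 18.1% and 18.7% of all genes did. In replicate 2, 2 lay below and 11 above, where 29.6% and 31.3% of all genes did.

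**Figure D5:**
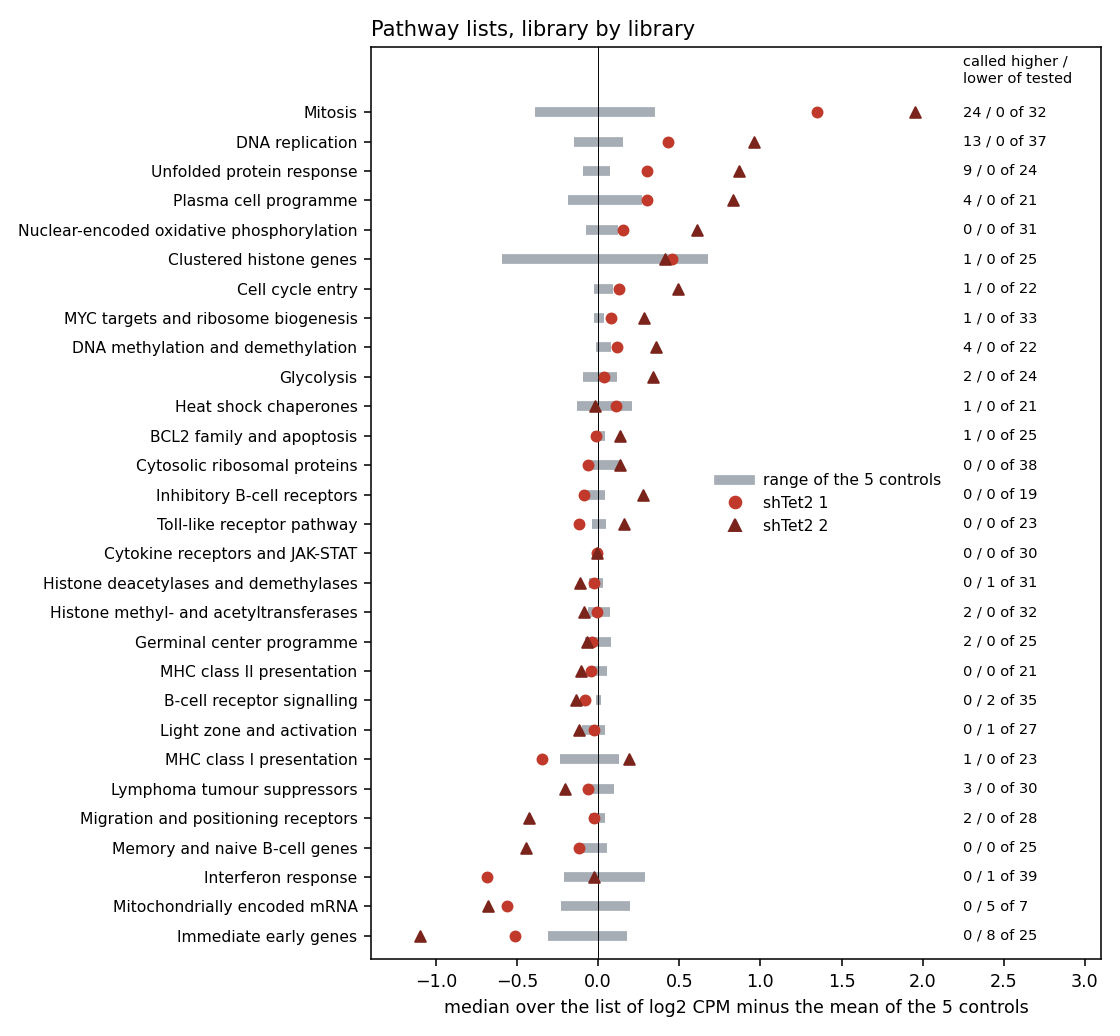
Median level of each pathway list of 7 or more tested genes (log2 CPM over the mean of the controls, horizontal) in shTet2 replicate 1 (circle) and replicate 2 (triangle), with the range of the 5 controls as a grey bar and the calls printed at the right. Mitosis has 24 calls of 32 and lies to the right of the control range in both libraries, while the interferon response lies to its left in shTet2 replicate 1 only.

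The differences were then set beside those between KO and WT GC B cells, in which 6.51% of 13586 genes passed (262 higher, 622 lower). Of the 333 genes, 327 were tested there and 28 passed, which is 8.56% of the shTet2 calls and 3.77% of the 743 KO calls tested in both. The direction was the same in 15 of the 28 (7 higher and 8 lower in both) and opposite in 13. Atp11a rose in both (2.81 and 0.44), while Fscn1 (2.35 and -0.96), Gatm (2.23 and -0.54) and Daam1 (1.39 and -1.66) moved in opposite directions. Mitosis genes had a median of 1.71 in shTet2 lymphoma cells and 0.05 in KO GC B cells, and immediate early genes had medians of -0.88 and 0.01.

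The difference between the 2 effects was tested in 1 model of the 14 libraries, and 4.5% of 16363 genes passed, 492 with the shTet2 effect higher and 244 with it lower. The number was 385 without shTet2 replicate 2, 458 without WT replicate 3 and 1973 without shTet2 replicate 1. Of the 32 mitosis genes 26 passed, all with the shTet2 effect higher, as did 12 of the 37 replication genes and 11 of the 24 unfolded protein response genes, of which 2 more passed with it lower. Of 25 immediate early genes 7 passed with the shTet2 effect lower and 1, Egr2, with it higher. Of 16 macrophage markers 6 passed, all with the shTet2 effect higher. Between KO and WT GC B cells 12 macrophage markers passed, all lower, while 0 passed between shTet2 and control cells. The higher shTet2 effect therefore does not by itself show a rise of these markers in shTet2 cells. For Plk1 the effects were 1.99 and 0.03 (adjusted p of the difference 2.74e-05) and for Zfp36 -1.12 and 0.36 (7.76e-05). The lymphoma and GC B-cell libraries were counted in separate tables and differ in structural share, so cell type and library quality cannot be told apart in this difference.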

How the data were processed

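RNA-seq libraries of 7 lymphoma B-cell samples (and 7 of GC B cells) had been made, per the labels' protocols, from RNA purified with Trizol and RNeasy, using a stranded TruSeq mRNA kit; per the submitters' processing notes STAR 2.3.0e and GRCm38.p3 were used. The deposited values are raw read counts of genes from featureCounts 1.5.1 over GENCODE vM3 exons, summed by gene name with no strand option, per the file headers. The header of the lymphoma table names 16 alignments, of which 7 are in the table; the others were not analysed here.

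Groups follow the titles. From the 41053 rows, 193 ribosomal and structural RNA rows were removed by name. Genes passing filterByExpr by group were tested with edgeR 4.0.16 (TMM, robust quasi-likelihood, R 4.3.3), Benjamini-Hochberg adjusted, at 0.05. Log CPM used a prior count of 2. Alternatives used limma 3.58.1 and DESeq2 1.42.0. In simulated data with 200 changed genes (12504 genes), 64.6% of 2-fold and 87.6% of 4-fold changes were called and 5.7% of calls were false; for the difference between effects (16363 genes) the values were 44.3%, 61.2% and 1.9%. With no gene changed, 0 genes were called in either. The simulated counts were drawn gene by gene, with no shift tied to the structural share. These rates therefore do not cover differences that go with that share.

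Named genes were Tet1 to Tet3, the 12 that rose most and the 12 that fell most among those called without overlap of the groups and with a mean of at least 5 CPM in the higher group, up to 3 called members per list or the 2 of smallest p where none was called, and 4 per direction for the difference between effects; predicted, mitochondrial, receptor segment and sex-linked genes were left out of the largest changes. Of 930 list members 915 matched a row. Other genes of a list were named after their values were seen. Some genes that the rule names are not reported here. The comparison, the members and the lists were chosen with earlier results of these data known. The replicate numbers shared by the groups (1 and 2) pair no samples by any label.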

Additional observations from a re-analysis of the deposited data

Results flagged for a closer look

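Of 105 values checked in the 5 controls (named genes on the scale log2(CPM + 0.5), and library shares), 4 had 1 control far from the others; chance alone would give about 1 in 20. The gap of that control to its nearest neighbour, as a share of the whole range, was 0.734 for Ttk in control replicate 2 (0.672 CPM against 3.28 to 5.27 CPM). It was 0.726 for Cxcr5 in control replicate 5 (634.7 CPM against 686.1 to 706.6 CPM). It was 0.749 for Lcn2, a neutrophil gene, in control replicate 5 (0.479 CPM against 3.53 to 5.98 CPM), and 0.748 for Car2 in the same library (15.6 CPM against 7.39 to 8.94 CPM). Control replicate 2 is the library with the fewest counts outside structural rows and control replicate 5 had the lowest summed neutrophil marker level (16.8 CPM); their part was not tested.

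The shTet2 effect in lymphoma cells and the KO effect in GC B cells differed by the test of the difference itself for 47 of the named genes. Opposite calls gave 3.25 (log2, shTet2 effect minus KO effect) for Fscn1 and 2.71 for Gatm. The largest differences upward were 7.32 for Kremen2, 6.52 for Ido1, 6.47 for Aldh1a2 and 6.42 for Tox2. Kremen2, Ido1 and Aldh1a2 had at most 2.08 CPM in any lymphoma library, with 0 counts in 4 or 5 of the 5 controls, so these sizes depend on the prior count. Tox2 had 8.49 and 1.56 CPM in shTet2 cells, at most 1.31 CPM in controls, 4.08 to 9.79 CPM in KO and 46.3 to 62.7 CPM in WT GC B cells. The largest downward were -4.34 for Gcnt7, -4.23 for Spata21, -3.94 for the pseudogene Fau-ps2 and -3.46 for Cadm1. The first 3 had at most 0.263 CPM in any GC B-cell library. Cadm1 had 6.41 to 36.9 CPM in controls, 3.64 and 4.85 CPM in shTet2 cells, 2.4 to 3.61 CPM in KO and 1.14 to 1.48 CPM in WT cells.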

How the results depend on the processing

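All 333 calls kept their direction in each alternative that tested them. The number of genes called (333: 237 higher, 96 lower) stayed within 1.5 times under median-of-ratios and upper-quartile scaling, structural rows kept, thinning to the shallowest library, a 5 CPM filter, limma-voom and removal of sex-linked, receptor and mitochondrial rows. It was 783 (523 and 260) with no filter, 584 (352 and 232) with DESeq2, 84 (79 and 5) with sample weights in limma-voom and 862 (696 and 166) in 1 model of all libraries. It was 0, 0 and 0 with the structural share as covariate, 1, 1 and 0 with the 2 controls of lowest share, and 0, 0 and 0 with the controls of low Lars2 share, an alternative chosen after seeing the data. The cause of these changes was not tested; the last 2 fits have fewer samples. Leaving out 1 library gave 101 to 2499 calls (81 to 1338 higher, 20 to 1161 lower), and 385 to 1973 for the difference between effects (736). At least 2-fold, 167 genes were called. With the replicate block 4 genes passed (3 higher, 1 lower), in a fit that only replicates 1 and 2 inform. Deviations of same-numbered samples correlated at -0.11 and -0.01. Crossed pairing was not fitted. With only 2 shTet2 libraries its values, 0.11 and 0.01, are the same ones with the sign turned. These correlations therefore cannot show whether the numbers pair samples.

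None of the 60 named genes called turned direction; of 40 not called, 7 did. Over the fits without 1 library the log2 fold change ran from -0.070 to 0.77 for Cd72, -2.65 to 0.11 for Lcn2, -2.12 to 0.28 for Car2, -0.54 to 0.32 for Itgb3 and -0.14 to 0.56 for Tcf4, with an end in each case from leaving out shTet2 replicate 1 or 2. With the share as covariate it was -0.086 for Emr1, 0.25 for Car2 and 0.12 for Itgb3. For Zbtb46 it was -0.019 with the 2 controls of lowest share and -0.048 with the block. Exons of Cd72 overlap those of Tesk1 on the other strand over 2604 of 3422 bases, where their reads cannot be told apart. With 1525240 counts outside structural rows, control replicate 2 limits low genes most.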

Other observations

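Antigen receptor segments, outside the lists above, described the clonal make-up of the libraries. One heavy-chain variable segment, Ighv1-58, held 53.7% of the variable-segment counts of shTet2 replicate 2, and the effective number of segments there was 11.6. In the other 6 libraries the leading segment held 6.37% to 16.3%, and the effective number was 45.3 to 53.7. Among light-chain segments Igkv2-137 held 40.6% in shTet2 replicate 2, Igkv1-117 led in all 5 controls with 8.4% to 38.2%, and Igkv3-4 led in shTet2 replicate 1 with 7.31%. Igkv3-2 had the smallest p of all genes, at 16.8 to 24.2 CPM in controls and 96.5 and 135.8 CPM in shTet2 cells (2.54, SE 0.15, edgeR adjusted p = 1.3e-05). Segment counts can be shared between near-identical segments, so these shares are of assigned reads.

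Calls were spread over the genome, from 2.02% to 3.13% of the genes tested on each autosome and 2.16% on chromosome X. Xist, at 3471 to 4057 CPM in controls, was at 2736 and 2850 CPM in shTet2 cells (-0.41, SE 0.10, edgeR adjusted p = 0.0498). Its call was lost with median-of-ratios scaling, with structural rows kept and on leaving out any 1 of control replicates 1 to 5.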
